A study of Mus musculus with 8 samples.

Results

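The 9 genes described here encode proteins that bind AKAP11: the glycogen synthase kinase 3 (GSK3) genes Gsk3a and Gsk3b, the protein phosphatase 1 (PP1) catalytic subunit genes Ppp1ca, Ppp1cb and Ppp1cc, the endoplasmic reticulum contact protein genes Vapa and Vapb, and the scaffold genes Gskip and Iqgap1. They were chosen by name, 9 of the 57186 genes listed in the deposited tables, and all 9 had enough reads to be among the 16766 genes tested. RNA came from mouse brain in 2 groups of 4 libraries, AKAP11 conditional knockout (cKO) and control. The sources used here do not give brain region, age, sex, strain, the recombinase that deletes Akap11 or the cells it acts in. They also do not say if the libraries come from different animals, and a p-value then reflects only how far these libraries spread, which may be technical. Reads in genes numbered 13841218 to 19991942 in cKO libraries and 15752877 to 19818313 in control libraries, and neuronal marker genes summed to between 7254 and 7712 CPM (reads of a gene after putting all libraries on 1 depth) in cKO and between 7440.2 and 8273 CPM in control libraries, with all 8 markers detected. The library of cKO replicate 1 had 63.8% of its listed reads assigned to genes, while the remaining 7 libraries had 73.7% to 79.7%. In it 10.1% were ambiguous, against 5.14% to 6.16% in the others. Another 7.18% had low alignment quality (2.15% to 4.04% in the others) and 10.4% were not aligned (3.31% to 6.66%). Results that rest on this library are given with and without it.

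AKAP11, also known as AKAP220, is an A-kinase anchoring protein: it holds protein kinase A (PKA) close to other signalling enzymes. GSK3 is a kinase of glycogen, Wnt and microtubule signalling that is active at rest and is inhibited by phosphorylation, PKA being one of the kinases that can do this. PP1 catalytic subunits remove phosphates from serine and threonine and owe their targets to regulatory subunits, while VAPA and VAPB sit in the endoplasmic reticulum membrane and bind proteins that carry a short FFAT motif, which joins that membrane to other organelles. The comparison asks whether the transcripts of these binding partners differ in brain RNA when Akap11 is deleted; the amounts of the proteins, their activity and their binding to AKAP11 are not measured by read counts.

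Several of the 9 genes are close paralogues, so the sequences are shown first to see how far reads can tell them apart. Each line gives the stretch of 60 coding bases in which the paralogues differ least, read 5′ to 3′ from the GENCODE M21 transcripts (annotated on GRCm38), with the positions at which the family members differ in capitals.
Ppp1ca (chromosome 19): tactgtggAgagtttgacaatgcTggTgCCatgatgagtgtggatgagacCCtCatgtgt
Ppp1cb (chromosome 5): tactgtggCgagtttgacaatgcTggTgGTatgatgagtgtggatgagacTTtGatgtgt
Ppp1cc (chromosome 5): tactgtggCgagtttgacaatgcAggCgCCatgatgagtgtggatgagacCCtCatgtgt
Gsk3a (chromosome 7): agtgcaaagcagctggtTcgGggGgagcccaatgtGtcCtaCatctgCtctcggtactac
Gsk3b (chromosome 16): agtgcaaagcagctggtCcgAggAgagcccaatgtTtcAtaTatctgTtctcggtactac
Vapa (chromosome 17): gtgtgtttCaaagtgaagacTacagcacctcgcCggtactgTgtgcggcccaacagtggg
Vapb (chromosome 2): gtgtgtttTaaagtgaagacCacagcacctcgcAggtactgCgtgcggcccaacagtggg

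Even in these stretches the PP1 genes differed at 8 of 60 positions, the GSK3 genes at 7 and the VAP genes at 4. The PP1 count takes all the PP1 genes at once, while the other counts are for a pair. Ppp1ca and Ppp1cc alone differ at fewer positions of their stretch than Vapa and Vapb do of theirs. Over the aligned coding sequence, identity was 77.5% between Ppp1ca and Ppp1cc, 75.2% between Ppp1ca and Ppp1cb, 74.7% between Ppp1cb and Ppp1cc, 70.6% between Gsk3a and Gsk3b, and 68.8% between Vapa and Vapb. The longest identical run was 44 bases, between Ppp1ca and Ppp1cc, and no stretch of 75 bases in the transcripts of any of the 9 genes recurred in another of the 9. Reads of that length therefore separate the paralogues from each other; the read length itself is not given in the sources used here.

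Other genes share sequence with some of them. Of the stretches of 75 bases in Ppp1cc transcripts, 37.2% also occur in transcripts of other genes, nearly all of them in Ppp1ccb, annotated as a processed transcript, to which 0 reads were assigned in the 8 libraries. Ambiguous reads (5.14% to 10.1% of listed reads) and reads with no unique alignment (4.10% to 4.39%) have entries of their own, left out here. How many reads from the shared stretches fell there is not known, and the level of Ppp1cc is uncertain to that extent. Gsk3a exons overlap those of the antisense gene 9130221H12Rik over 820 bases (172 reads in all libraries), Gskip those of Atg2b over 383 bases (8503 reads), and Ppp1ca those of Rad9a over 225 bases (1226 reads), each on the opposite strand. As the strand setting of the counting is not given, it is not known if reads from these stretches were assigned to either gene or set apart as ambiguous. Gsk3b, Vapa and Vapb shared no stretch of 75 bases with any other annotated gene.

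Akap11 itself (ENSMUSG00000022016, chromosome 14) was at 220.5, 214, 237 and 240.5 CPM in cKO replicates 1 to 4, and at 373, 312, 315 and 290.6 CPM in control replicates 1 to 4, so that every cKO library lay below every control library. It fell, with a log2 fold change of -0.50 (SE 0.069, with an adjusted p of 0.0103 by edgeR), the only one of the 10 genes plotted as fold changes to pass the test. The call ended without cKO replicate 2 (-0.47, edgeR adjusted p 0.107) and without control replicate 2 (-0.52, edgeR adjusted p 0.0596). The counts cover the whole gene and all cells in the sample, which includes any exons left in place and any cells without the recombinase.

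Of the 9 partner genes, 0 passed edgeR's test after adjustment over all genes, where 0.0239% of the 16766 genes tested did (0.0119% higher and 0.0119% lower); 0 also passed by DESeq2 and by limma voom. An unadjusted edgeR p under 0.05 was reached by 0 of the 9, against 4.78% of all genes (2.87% higher and 1.91% lower), and the cKO and control libraries overlapped for every one of the 9, while 2.96% of all genes had groups that did not overlap (1.57% with cKO higher and 1.39% with cKO lower). Log2 fold changes were positive for 4 genes and negative for 5, with a median of -0.041, where all genes tested had a median of 0.0034. The 95% intervals ran from -0.33 at the lowest to 0.19 at the highest, so for each of the 9 genes the interval stopped short of the interval of Akap11 itself, which ran from -0.64 to -0.35. Standard errors of the 9 log2 fold changes were 0.055 to 0.082, against a median of 0.078 for the 10368 genes with a mean of at least 10 CPM. In a bulk sample, fewer cells of a type and less RNA per cell cannot be told apart, so a change in a small share of cells may lie within these intervals.

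**Figure D1:**
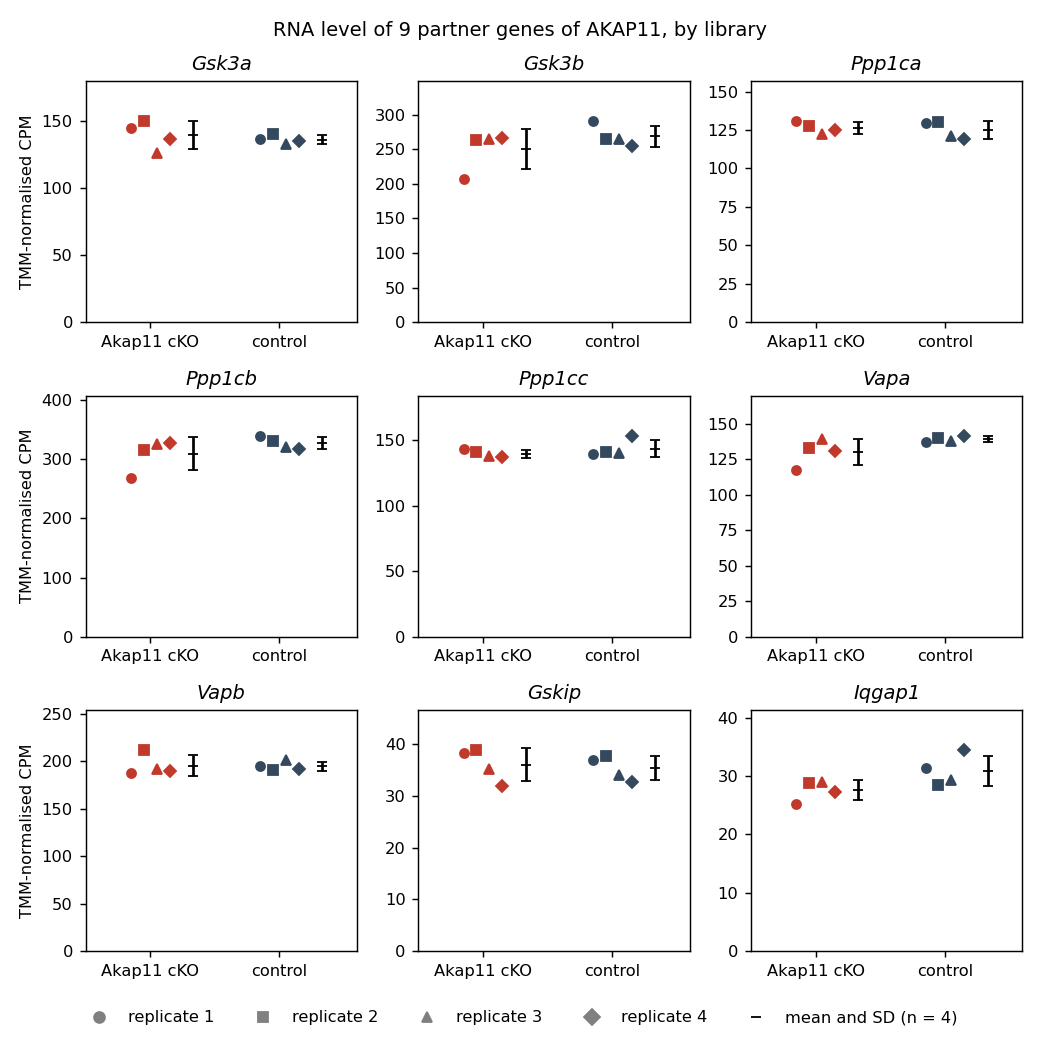
Each panel shows the TMM-normalised CPM (y axis, from 0) of 1 partner gene in the 4 cKO libraries (left) and the 4 control libraries (right), with the symbol shape giving the replicate number and the bar giving mean and SD. The groups overlap in all 9 panels, and cKO replicate 1 (circle) is the lowest of the 8 libraries for Gsk3b, Ppp1cb, Vapa, Vapb and Iqgap1.

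**Figure D2:**
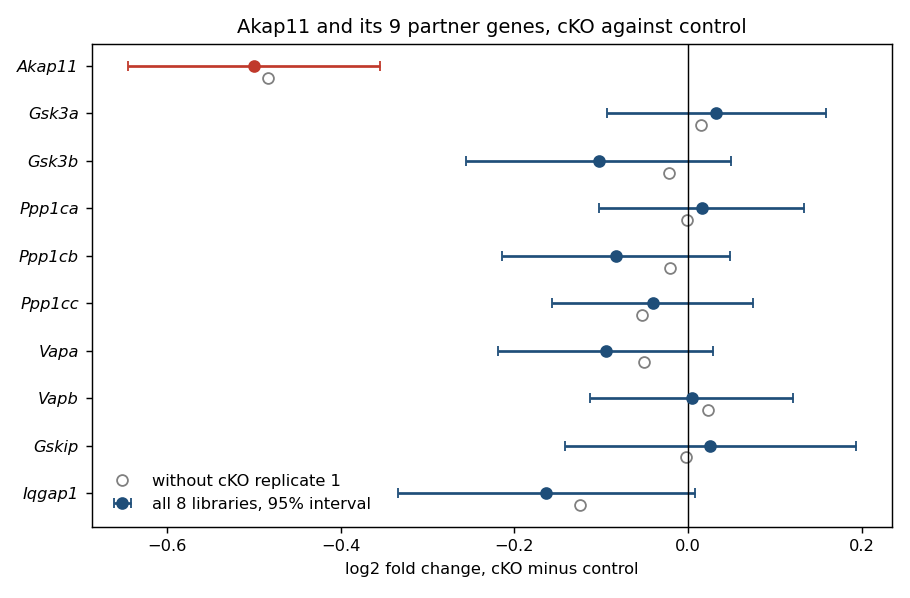
Filled points give the log2 fold change of cKO minus control with its 95% interval for Akap11 and its 9 partner genes over all 8 libraries, and open points give the value without cKO replicate 1. The interval of Akap11 lies below 0, while the intervals of all 9 partner genes include 0.

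The kinase genes come first. Gsk3a (ENSMUSG00000057177) encodes the alpha form of the kinase and was at 145, 150.0, 126 and 137 CPM in cKO replicates 1 to 4, and at 137, 140.4, 133 and 135 CPM in control replicates 1 to 4. The highest and the lowest value were both in cKO libraries, with the control libraries between them. Means were 139 ± 10.4 CPM in cKO and 136 ± 3.05 CPM in control brain (SD, n = 4 each), a log2 fold change of 0.033 (SE 0.061, with an adjusted p of 0.942 by edgeR). On the linear scale its 95% interval ran from -6.29% to 11.7%. Its sign turned when cKO replicate 2 was left out (-0.0046) and under GC-content offsets (-0.048).

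Gsk3b (ENSMUSG00000022812), the beta form, was at 206, 263, 264 and 267 CPM in cKO replicates 1 to 4, and at 290.5, 265, 265 and 255 CPM in control replicates 1 to 4. Of the cKO libraries, replicate 1 stood well below the other 3, which lay close together and inside the control range. Means were 250.2 ± 29.2 CPM in cKO and 269 ± 15.1 CPM in control brain (SD, n = 4 each), with a log2 fold change of -0.10 (SE 0.073, with an adjusted p of 0.889 by edgeR) and a 95% interval from -16.2% to 3.51%. Without cKO replicate 1 the mean in cKO brain was 265 ± 1.66 CPM (SD, n = 3) and the log2 fold change -0.022, and with control replicate 1 also left out it was 0.015, so that the size and sign of the difference rest on those libraries. Without control replicate 1 alone it was -0.066.

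Gskip (ENSMUSG00000044715, chromosome 12) encodes a small protein that binds both GSK3 and PKA. Its level was 38.2, 38.7, 35.1 and 31.9 CPM in cKO replicates 1 to 4, and 37.0, 37.7, 34.0 and 32.7 CPM in control replicates 1 to 4. Both groups spread over nearly the same range. The log2 fold change was 0.026 (SE 0.080, with an adjusted p of 0.968 by edgeR), and this lower-count gene, with 528 to 768 reads per library, had a wide interval of -9.37% to 14.3%.

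The balance between Gsk3b and Gsk3a within a library does not depend on the scaling between libraries. The log2 ratio of their raw counts was 0.51, 0.81, 1.07 and 0.96 in cKO replicates 1 to 4, and 1.09, 0.92, 0.99 and 0.92 in control replicates 1 to 4. The cKO libraries spread over a wider range than the controls, and the groups overlapped. Means were 0.84 ± 0.24 in cKO and 0.98 ± 0.080 in control brain (SD, n = 4 each); no test was made of this ratio. The difference in means was -0.14 with all libraries, -0.032 without cKO replicate 1, -0.22 without cKO replicate 3 and 0.0045 without both replicates numbered 1. As exon lengths enter it equally in every library, it compares libraries and not the abundance of the 2 genes.

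**Figure D3:**
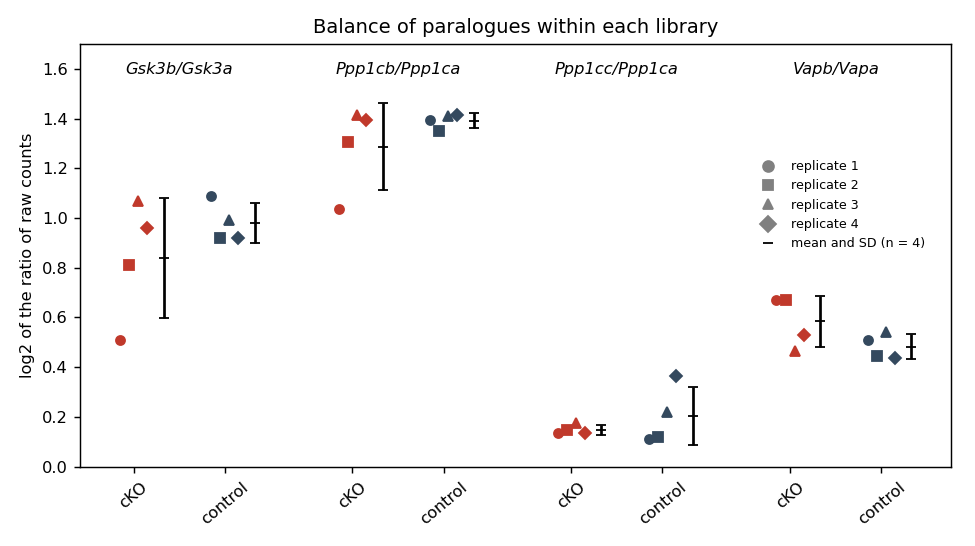
Points give the log2 of the ratio of raw read counts of paralogues in each cKO (left) and control (right) library, with mean and SD beside each group. The groups overlap for all 4 ratios, and cKO replicate 1 (circle) is lowest for Gsk3b/Gsk3a, at 0.51, and for Ppp1cb/Ppp1ca, at 1.04.

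The PP1 catalytic genes encode the alpha (Ppp1ca), beta (Ppp1cb) and gamma (Ppp1cc) forms of the enzyme. Ppp1ca (ENSMUSG00000040385) was at 131, 127, 122 and 125 CPM in cKO replicates 1 to 4, and at 129, 130.1, 121 and 119 CPM in control replicates 1 to 4. The groups covered nearly the same values. Its log2 fold change was 0.016 (SE 0.057, with an adjusted p of 0.973 by edgeR), with an interval from -6.84% to 9.72%, and the sign turned under 4 of the 17 alternatives, the lowest being -0.039 with GC-content offsets.

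Ppp1cb (ENSMUSG00000014956) was at 268, 315, 326 and 327 CPM in cKO replicates 1 to 4, and at 339, 331, 321 and 318 CPM in control replicates 1 to 4. Replicate 1 was again low among the cKO libraries, and the other 3 lay within or just below the control range. The log2 fold change was -0.083 (SE 0.063, with an adjusted p of 0.889 by edgeR) with an interval from -13.8% to 3.40%, and -0.021 without cKO replicate 1. The exons of Ppp1cb overlap Gm43312 on the same strand over 17.5% of their length, and 0 reads were assigned to that gene. Reads from that stretch may have been set apart as ambiguous, and how many were is not known. The level of Ppp1cb, also per kilobase, is uncertain to that extent.

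Ppp1cc (ENSMUSG00000004455) was at 143, 141, 138 and 137 CPM in cKO replicates 1 to 4, and at 139.6, 141, 141 and 153 CPM in control replicates 1 to 4. Control replicate 4 was the one library that stood above the rest. The log2 fold change was -0.041 (SE 0.055, with an adjusted p of 0.924 by edgeR), with an interval from -10.3% to 5.32%, and it was -0.0091 without control replicate 4. The limit on Ppp1cc reads that comes from Ppp1ccb applies to both groups.

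Within libraries, the log2 ratio of Ppp1cb to Ppp1ca counts was 1.29 ± 0.17 in cKO and 1.39 ± 0.031 in control brain (SD, n = 4 each). Without cKO replicate 1, at 1.04, the other cKO libraries lay between 1.31 and 1.41, against 1.35 to 1.42 in control libraries, and the difference in means was -0.021 in place of -0.10. The log2 ratio of Ppp1cc to Ppp1ca was 0.15 ± 0.019 in cKO and 0.20 ± 0.12 in control brain (SD, n = 4 each), and here the control libraries were the more spread. The difference of -0.056 rested on control replicate 4, being -0.0019 without it, and was -0.087 without control replicate 1 and -0.084 without control replicate 2.

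Vapa (ENSMUSG00000024091) and Vapb (ENSMUSG00000054455) encode tail-anchored proteins of the endoplasmic reticulum. Vapa was at 118, 133, 139 and 131 CPM in cKO replicates 1 to 4, and at 137, 139.9, 138 and 141 CPM in control replicates 1 to 4. Of the cKO libraries 3 lay below all controls, and replicate 3 lay inside the control range. Means were 130.2 ± 9.08 CPM in cKO and 139 ± 1.92 CPM in control brain (SD, n = 4 each), with a log2 fold change of -0.095 (SE 0.059, with an adjusted p of 0.889 by edgeR) and an interval of the log2 fold change from -0.22 to 0.029. Without cKO replicate 1 it was -0.050, and with GC-content offsets -0.060.

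Vapb was at 187, 211, 192 and 189 CPM in cKO replicates 1 to 4, and at 195, 190.4, 201 and 192 CPM in control replicates 1 to 4. The cKO libraries held both the highest and the lowest value. Means were 195 ± 11.1 CPM in cKO and 195 ± 4.67 CPM in control brain (SD, n = 4 each), and the log2 fold change of 0.0041 (SE 0.056, with an adjusted p of 0.994 by edgeR) had an interval from -7.55% to 8.77%. The log2 ratio of Vapb to Vapa counts was 0.67, 0.67, 0.46 and 0.53 in cKO replicates 1 to 4, and 0.51, 0.44, 0.54 and 0.44 in control replicates 1 to 4. Replicates 1 and 2 of the cKO group lay above all controls, and the others within the control range.

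Iqgap1 (ENSMUSG00000030536, chromosome 7) encodes a scaffold that links actin, calmodulin and small GTPases, and it had the log2 fold change farthest from 0 among the 9. Its level was 25.2, 28.9, 28.9 and 27.3 CPM in cKO replicates 1 to 4, and 31.4, 28.5, 29.4 and 34.4 CPM in control replicates 1 to 4. Of the cKO libraries 2 lay below all controls and 2 within the control range. Means were 27.6 ± 1.76 CPM in cKO and 30.9 ± 2.60 CPM in control brain (SD, n = 4 each). The log2 fold change of -0.16 (SE 0.082) had an edgeR adjusted p of 0.889, an unadjusted edgeR p of 0.0607 and an interval from -20.7% to 0.559%. It was negative in all 17 alternatives, lying between -0.20 (control replicate 2 left out) and -0.11 (control replicate 4 left out), and its adjusted p by edgeR, DESeq2 or limma was at least 0.706. The unadjusted p was under 0.05 in 2 of them, without control replicate 2 (0.0386) and with GC-content offsets (0.0450).

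Iqgap1 is also transcribed in vessel and immune cells, so their marker genes are given beside it. Summed over 8 endothelial markers, cKO libraries held 247 to 266 CPM and control libraries 255 to 281 CPM. The 7 mural cell markers summed to 232 to 238 CPM in cKO and 213 to 265 CPM in control libraries, and the 8 microglial markers to 280.0 to 304 CPM in cKO and 273 to 312 CPM in control libraries. All 3 sums overlapped between the groups, all of these genes were detected, and 0 passed edgeR's adjusted test. Their part in the value of Iqgap1 was not tested.

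Of the 9 genes, cKO replicate 1 was the lowest of all 8 libraries for 5 (Gsk3b, Ppp1cb, Vapa, Vapb and Iqgap1) and the highest for Ppp1ca. The GC content of the longest transcript was 46.1% for Gsk3b, 40.8% for Ppp1cb, 42.7% for Vapa, 49.6% for Vapb and 49.3% for Iqgap1, against 59.8% for Gsk3a and 56.1% for Ppp1ca. It was 48.8% for Ppp1cc and 48.0% for Gskip, neither of which was lowest or highest in that library. With offsets for GC content in every library Ppp1cb was at -0.041 and Vapa at -0.060, and Gsk3b was at -0.091 and Iqgap1 at -0.16. The part of GC content in the values of this library was not tested. Without cKO replicate 1, 0 of the 9 genes passed and the log2 fold changes lay between -0.12 (Iqgap1) and 0.023 (Vapb).

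**Figure D4:**
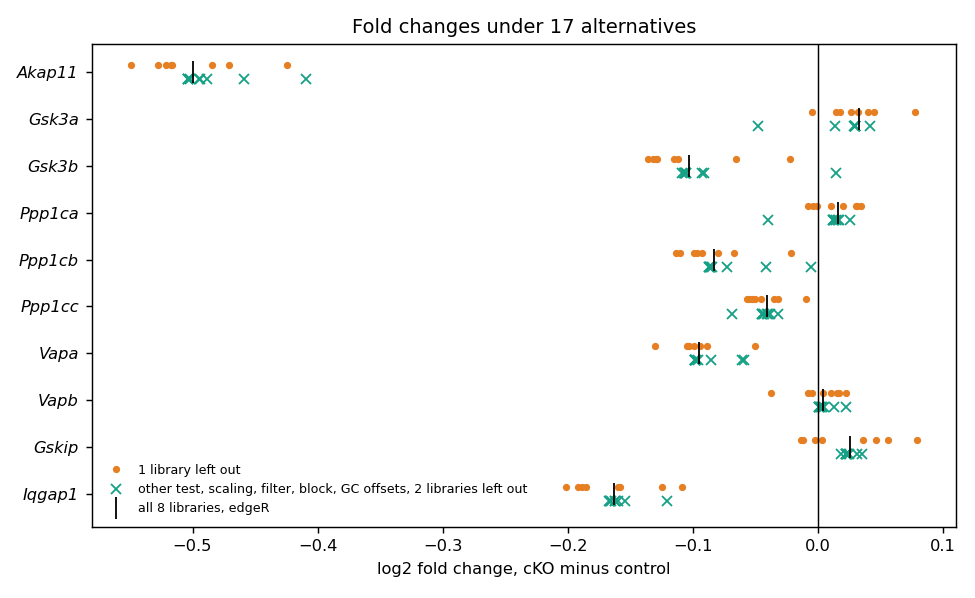
The vertical bar gives the log2 fold change of cKO minus control over all 8 libraries, dots give fits with 1 library left out, and crosses give the other alternatives. Akap11 stays between -0.55 and -0.41, Iqgap1 between -0.20 and -0.11, and Gsk3a, Gsk3b, Ppp1ca, Vapb and Gskip have values on both sides of 0.

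Among control libraries, the coefficient of variation (SD as a percentage of the mean) ran from 1.38% for Vapa to 8.39% for Iqgap1. For 7 of the 9 genes it was below 5.76%, the median of the 10368 genes with a mean of at least 10 CPM. That median was not matched for level, and the genes above it, Gskip and Iqgap1, had the lowest CPM of the 9. Among cKO libraries the coefficient was 11.7% for Gsk3b, falling to 0.627% when replicate 1 was left out, and 9.02% for Ppp1cb, or 2.04% without that replicate. For Gsk3a it was 7.49% in cKO and 2.24% in control libraries, and leaving out cKO replicate 1 did not lower it (8.73%). The median over the same 10368 genes was 7.71% in cKO libraries, so that Gsk3a lay below it there.

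Levels were compared between genes per kilobase of annotated exon. Over all 8 libraries the order was Ppp1ca (49.8 CPM per kilobase), Gsk3a (47.6), Ppp1cc (41.4), Vapa (38.6), Ppp1cb (29.2), Vapb (27.3), Gsk3b (26.4), Gskip (8.28) and Iqgap1 (1.77). The ranges over libraries overlapped between each gene and the next from Ppp1ca to Vapa and again from Ppp1cb to Gsk3b. Vapa lay above Ppp1cb, Gsk3b above Gskip and Gskip above Iqgap1 without overlap. The order depends on the length taken: per kilobase of the longest transcript, Ppp1cb (53.4) stood above Vapa (39.98), Gsk3b (31.3) stood above Vapb (27.7), and the first 3 and last 2 places held the same genes.

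The pattern of each gene over the 8 libraries was set against 10089 genes, those with a mean of at least 10 CPM less predicted genes, pseudogenes and clone-named genes, by the root mean square difference of log2 CPM after centring each gene on its own mean. Nearest were Vcpip1 to Gsk3b (0.020, against a median of 0.16 over all genes), Spcs3 to Ppp1cb (0.019, against 0.14) and Nemf to Vapa (0.013, against 0.13). For the flatter genes they were Dmtn for Gsk3a (0.026), Cadm3 for Ppp1ca (0.019), Nf2 for Ppp1cc (0.024) and Ubl5 for Vapb (0.017). Tmem9 was nearest to Gskip (0.025) and Hmgb3 to Iqgap1 (0.051), the least close match of the 9. Among the partner genes themselves, the closest pair was Gsk3b and Ppp1cb (0.042), both of which were low in cKO replicate 1. These are descriptions over 8 libraries, which share depth and composition effects.

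Around the partners, genes of their pathways were read from 6 lists. The 20 GSK3 regulators and beta-catenin destruction complex genes had 0 members past the adjusted test, with a median log2 fold change of 0.027 (0.0050 without cKO replicate 1). An unadjusted edgeR p under 0.05 was reached by 2 lower genes and 1 higher gene of the 20, against 1.91% and 2.87% of all genes tested. Apc, the scaffold of the destruction complex, was at 321, 315, 349 and 356 CPM in cKO replicates 1 to 4, and at 443, 374, 369 and 357 CPM in control replicates 1 to 4, the groups just not overlapping. Its log2 fold change was -0.20 (SE 0.067, unadjusted edgeR p 0.00701, adjusted 0.889), or -0.18 without cKO replicate 1. Lrp6, a Wnt co-receptor, was at 59.3 to 63.1 CPM in cKO and 66.8 to 69.1 CPM in control libraries, with a log2 fold change of -0.14 (unadjusted edgeR p 0.0283, adjusted 0.889). Dvl3 and Dvl1, which relay Wnt signals, had 0.14 and 0.16, each with an edgeR adjusted p of 0.889. Without cKO replicate 1, Dvl3 was at 0.10, with an unadjusted edgeR p of 0.0827 in place of 0.0397. Groups did not overlap for 4 of the 20 genes: Apc, Lrp6, Dvl3 and Amer1, of which Amer1 was picked after seeing its values. The share of all genes tested whose groups did not overlap was 2.96%.

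Of the 15 GSK3 substrate genes, 0 passed, and the median log2 fold change was 0.041 (0.0062 without cKO replicate 1). An unadjusted edgeR p under 0.05 was reached by 1 of them, lower in cKO, where 4.78% of all genes tested did (1.91% lower). This was Map1b, a microtubule-associated protein gene. It stood at 882, 1049.7, 983 and 1024 CPM in cKO replicates 1 to 4, and at 1368, 1033, 1124 and 993 CPM in control replicates 1 to 4. Its log2 fold change was -0.20 (SE 0.085, with an adjusted p of 0.889 by edgeR). Gys1, encoding muscle-type glycogen synthase, had 0.16, the microtubule plus-end gene Clasp2 had -0.074, and Dpysl2, encoding the axon guidance protein CRMP2, had -0.11 (-0.0078 without cKO replicate 1). The groups overlapped for all 15, where 2.96% of all genes tested had groups that did not overlap. Map1b was at -0.15 without cKO replicate 1.

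Of the 36 genes listed for PP1 regulatory subunits and inhibitors, 35 were tested and 0 passed, 1 higher and 1 lower reaching an unadjusted edgeR p under 0.05 (4.78% of all genes tested did), with a median log2 fold change of -0.033 (-0.0038 without cKO replicate 1). Ppp1r3e, which targets PP1 to glycogen, was at 8.68, 10.1, 10.1 and 9.13 CPM in cKO replicates 1 to 4, and at 12.7, 11.4, 12.7 and 11.5 CPM in control replicates 1 to 4. All cKO libraries lay below all controls. Its log2 fold change was -0.34 (SE 0.11, unadjusted edgeR p 0.0039, adjusted 0.889), or -0.31 without cKO replicate 1. Ppp1r12c, a myosin phosphatase targeting subunit gene, had 0.16 (unadjusted edgeR p 0.0276). Without cKO replicate 1, Ppp1r12c was at 0.12, with an unadjusted edgeR p of 0.0679. Ppp1r9a, encoding neurabin of dendritic spines, had -0.13, and the nuclear regulator gene Ppp1r7 had -0.11. Groups did not overlap for Ppp1r3e, Ppp1r7, Ppp1r8 and Wbp11, the last 2 named after their values were seen, where 2.96% of all genes tested had groups that did not overlap. Of the 8 other serine/threonine phosphatase catalytic subunit genes 0 passed and 0 reached an unadjusted edgeR p under 0.05 (median -0.037, or -0.022 without cKO replicate 1), with Ppp3ca and Ppp3cb, which encode calcineurin, at -0.10 and -0.060, Ppp4c at 0.083 and Ppp6c at -0.066.

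Of the 32 VAP partner and VAP-like genes, 0 passed, and the median log2 fold change was -0.034, which turned to 0.0063 without cKO replicate 1. Osbp, a sterol and phosphoinositide transfer protein at contacts with the Golgi, was at 77.9, 76.5, 77.2 and 78.2 CPM in cKO replicates 1 to 4, and at 84.8, 83.3, 80.9 and 84.8 CPM in control replicates 1 to 4. It was the one gene of the list whose groups did not overlap, with a log2 fold change of -0.11 (SE 0.056, with an adjusted p of 0.889 by edgeR). Over all genes tested, 2.96% had groups that did not overlap and 4.78% had an unadjusted edgeR p under 0.05. Pitpnm1, a phosphatidylinositol transfer protein gene and the 1 member with an unadjusted edgeR p under 0.05 (0.0493), had 0.14 (0.061 without cKO replicate 1), Acbd5, a peroxisomal VAP partner, had -0.17 (-0.074), and Stard3, a late endosomal sterol transporter, had 0.19 (0.087). These 3 values moved by over 1.5 times when that library was left out. Of the 11 IQGAP paralogue and IQGAP1 binder genes 0 passed, with 8 negative and a median of -0.083 (-0.039 without cKO replicate 1). The microtubule plus-end gene Clip1, the 1 member with an unadjusted edgeR p under 0.05, had -0.15 (SE 0.066, unadjusted edgeR p 0.0322) and the paralogue Iqgap2 -0.16, while the calmodulin gene Calm2 had -0.083, all with an edgeR adjusted p of 0.889. Without cKO replicate 1, several of the pathway values named above moved by over 1.5 times: Dvl1 was at 0.072, Gys1 at 0.086, Clasp2 at -0.046, Ppp4c at 0.048, Ppp3ca at -0.022, Ppp3cb at -0.010, Ppp6c at -0.025, Clip1 at -0.094 and Calm2 at -0.035.

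**Figure D5:**
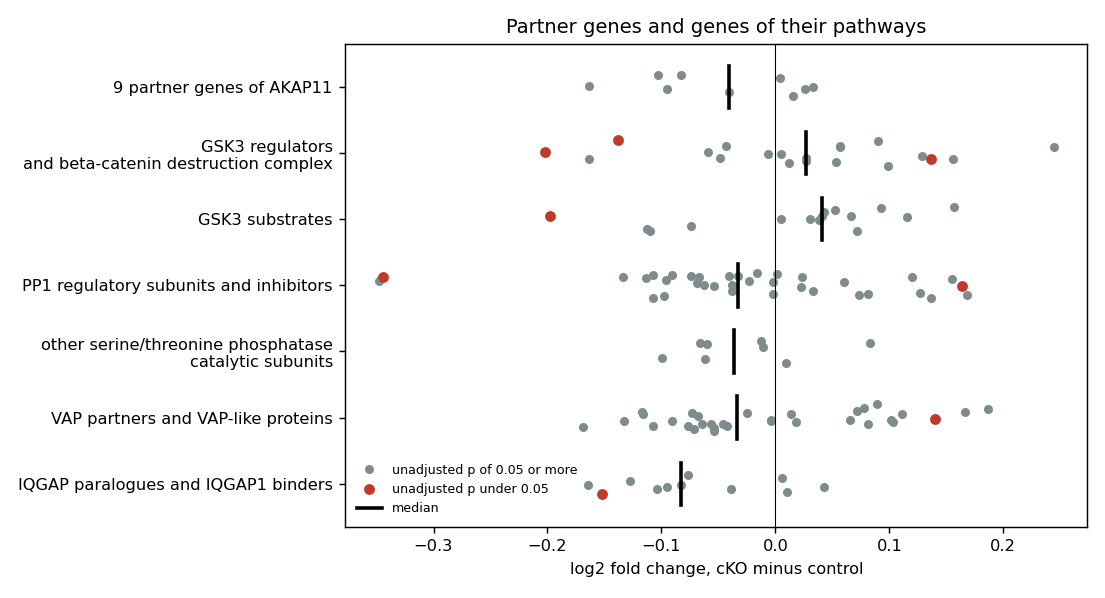
Each point is the log2 fold change of cKO minus control for 1 gene (x axis) in the partner genes and the 6 pathway lists, with list medians as bars and genes with an unadjusted edgeR p under 0.05 in red. Medians lie between -0.083 and 0.041, and 0 genes in any of the rows passed the adjusted test.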

How the data were processed

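RNA of 8 mouse brain libraries was analysed, grouped by their titles. The deposited values are raw read counts per gene, 1 table per library; HISAT2 and GRCm39 are named in the submitters' processing notes, while the sources used here do not give versions, counter, annotation or strand setting. Totals ran from 13841218 to 19991942 reads in genes; 5 entries that name no gene stayed out, leaving 63.8% to 79.7% of listed reads. Of 57186 identifiers 51880 matched a symbol.

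Genes kept by filterByExpr were scaled by TMM and compared with edgeR 4.0.16 (quasi-likelihood, robust, group only, under R 4.3.3), Benjamini-Hochberg adjusted over all genes at 0.05. The fit was also run on counts simulated from its own dispersions. That simulation held no deviating library, so it does not test how the fit handles one. CPM values were computed here. Alternatives were DESeq2 1.42.0, limma 3.58.1, other scalings and filters, a replicate block, GC-content offsets and left-out libraries. Lengths, GC content and sequences come from GENCODE M21; its build differs, so no coordinates are given. Coding sequences were aligned with Biopython 1.88.

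The members and lists were chosen with earlier results of these data known. The named genes are the 9 partners, Akap11, up to 4 genes with the lowest p per list, and the nearest gene to each partner by pattern. One gene that this rule names is not reported here. Amer1, Ppp1r8, Wbp11 and Vps13d fall outside it and were picked after seeing their values.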

Additional observations from a re-analysis of the deposited data

Results flagged for a closer look

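In 3 of the 48 groups of 4 libraries checked, 1 library stood far from the other 3 (gap to the nearest library over the range of the group, above Dixon's 95% critical value); chance gives about 1 in 20 groups. For Gsk3b in cKO brain the ratio was 0.946: cKO replicate 1 held 206 CPM and the others 263 to 267 CPM. For Ppp1cc in control brain it was 0.873, with control replicate 4 at 153 CPM and the others at 139.6 to 141 CPM. For the summed oligodendrocyte markers in control brain it was 0.843, with control replicate 3 at 6104 CPM and the others at 5084 to 5244 CPM.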

How the results depend on the processing

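The count of partner genes past the threshold was 0 in all 17 alternatives. The count over all genes was 4, and moved to 2 with limma voom, 2 with the replicate block, 7 with no low-count filter, 2 without both replicates numbered 1, and 0 to 3 with 1 library left out. It was 0 by edgeR without cKO replicate 2 and 0 without control replicate 2, where edgeR and DESeq2 on all libraries each called 4. Deviations from the group mean, over the genes tested, had correlations of 0.0052 to 0.049 between same-numbered libraries. The labels do not say what a number stands for, and these values cannot show whether it pairs libraries. In the fit with the replicate block, Gsk3b stood at -0.11 and Iqgap1 at -0.16, and no call of a partner gene changed. Signs turned for Gsk3a, Ppp1ca, Vapb and Gskip, with values near 0, and for Gsk3b, at -0.10 with all libraries. No call was made on either side. Gsk3a was -0.048 with GC-content offsets, and from -0.0046 (cKO replicate 2 out) to 0.078 with 1 library left out. Gsk3b was 0.015 without both replicates numbered 1. Ppp1ca was -0.039 with GC-content offsets, and -0.0078 to 0.034 with 1 library left out (negative without cKO replicate 1, control replicate 3 or control replicate 4). With 1 library left out, Vapb was -0.037 to 0.023 (negative without cKO replicate 2, control replicate 2 or control replicate 4) and Gskip -0.013 to 0.079 (negative without cKO replicate 1, cKO replicate 2 or control replicate 4). The cause was not tested. The length used for levels per kilobase, and pathway counts without cKO replicate 1, were added after seeing the data. Unadjusted counts without that library were 2, 0, 1, 0, 2 and 0, against 3, 1, 2, 0, 1 and 1 with all libraries, in the order in which the lists are described. Over all genes the share was 3.87% without that library, against 4.78%. For the VAP list the 1 gene was Pitpnm1, higher, and the 2 genes without that library were Osbp and Vps13d, both lower; Vps13d was picked after seeing its values.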
